A study of Mus musculus with 12 samples.

Results

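The genes described here encode the enzymes that hydrolyze NAD+ or break down extracellular nucleotides, and they were taken by name as 10 of the 55401 genes listed for every sample. They are the NAD+ hydrolases Cd38, Bst1 and Sarm1, the nucleotide pyrophosphatase/phosphodiesterases Enpp1 and Enpp2, the ecto-nucleoside triphosphate diphosphohydrolases Entpd1, Entpd2 and Entpd3, and the AMP-hydrolyzing enzymes Nt5e and Alpl. Adult neural stem/progenitor cells (aNSPCs) had been isolated from the forebrain of C57BL/6 mice aged 8 to 10 weeks and grown with EGF and FGF-2 (20 ng/mL each), and their RNA was sequenced to ask how NAD+ exposure alters the transcriptome. The proliferating Ctrl group was kept under proliferating conditions without added NAD+, and the proliferating NAD+ group received 1 mM NAD+ under the same conditions. The differentiation Ctrl group was placed under differentiation conditions, which the study's cell assays define as 1 µM retinoic acid and 5 µM forskolin, and the differentiation NAD+ group received the same agents plus 1 mM NAD+. There were 4 groups of 3 samples, 12 in all, none of them carrying an engineered allele according to the labels. Groups follow the sample titles, since a treatment field of the labels lists all 12 samples as untreated. The study describes the 3 samples of a group as biological repeats, and neither it nor the labels say whether they came from separate mice or separate cultures, so the p-values below measure the spread between these samples.

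NAD+ outside the cell is a substrate of a short enzymatic chain. CD38 and BST1 cleave it to nicotinamide and ADP-ribose or cyclic ADP-ribose, and ENPP1 cleaves NAD+ and ATP to AMP. E-NTPDases remove phosphates from ATP and ADP to yield AMP, and 5'-nucleotidase (Nt5e) or tissue non-specific alkaline phosphatase (Alpl) converts AMP to adenosine, which cells take up or sense through adenosine receptors. SARM1 hydrolyzes NAD+ inside the cell and is best known for driving axon degeneration. In the adult forebrain, NTPDase2 and alkaline phosphatase are known as enzymes of the subventricular zone progenitors, whereas NTPDase1 is typical of microglia and blood vessels.

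Expression was given as FPKM, a level corrected for transcript length and for the mapped fragments of a library, so levels of different genes can be compared per length. Values summed to between 308828 and 363330 per sample, which does not measure depth, and the depth of the samples is unknown. Samples correlated across genes at r = 0.958 to 0.978 within groups and 0.861 to 0.973 between groups. The limma test used log2(FPKM + 0.1), a scale that understates changes of low genes, for all genes whose mean FPKM reached 0.1, and a gene was called at a Benjamini-Hochberg adjusted p under 0.05 over all genes tested. The study's own threshold, an unadjusted p under 0.05 with mean FPKM differing by more than 2-fold, was applied as a second rule. It used the limma p and not the authors' p, so genes passing it are not the study's own list. An exact two-sided permutation test of 3 against 3 samples cannot go below p = 0.1.

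The summed FPKM of 8 stem/progenitor markers was 2600 to 2850 in proliferating Ctrl, 1600 to 2110 in proliferating NAD+, 783 to 870 in differentiation Ctrl and 791 to 871 in differentiation NAD+. Across the same groups, 6 astrocyte markers summed to 542 to 597, 468 to 591, 1150 to 1260 and 1650 to 1670, and 6 neuron markers to 21.9 to 32.6, 28.6 to 31.2, 29.9 to 35.3 and 30.5 to 31.0. Oligodendrocyte markers (8 genes) summed to 48.2 to 59.7, 41.2 to 47.6, 198 to 243 and 107 to 137. The progenitor sum was thus highest in dividing cultures and the astrocyte and oligodendrocyte sums were highest in differentiating ones. Single genes weighed most. Fabp7 averaged 2110 FPKM in proliferating Ctrl and 449 in differentiation Ctrl. Gfap averaged 19.0 and 595 there, and 977 in differentiation NAD+. Other genes of these lists were called in the opposite direction. Between Ctrl cultures Msi1 was higher (log2 difference 0.44) and S100b lower (-0.78). Aldh1l1 was lower with NAD+ under differentiation conditions (log2 change -0.61). Markers of cells that a forebrain preparation could also hold were near 0, as 12 microglial markers summed to at most 0.61 FPKM in any sample and 8 endothelial markers to at most 0.97. Pericyte and fibroblast markers (10 genes) summed to at most 2.35 and choroid plexus markers (7 genes) to at most 2.39. In these bulk samples, fewer cells of a type and less RNA per cell cannot be told apart.

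Of the 10 enzymes, Enpp2, Alpl and, in differentiating cells, Entpd2 were the most abundant transcripts, and Bst1 and Entpd3 were listed at or near 0 throughout. Bst1 lay between 0 and 0.08 FPKM over the 12 samples and Entpd3 between 0 and 0.05, so neither passed the filter on low values in any comparison and the other 8 were tested. Under proliferating conditions, 0 of the 8 tested enzymes were called after NAD+ exposure, where 0.145% of all 18597 tested genes were, and 2 (Cd38 and Alpl) had an unadjusted limma p under 0.05, where 15.4% of all genes did. Under differentiation conditions, 2 of 8 were called, Enpp2 and Entpd1, both lower, where 6.92% of 19611 tested genes were called (4.65% lower and 2.27% higher). An unadjusted limma p under 0.05 was reached there by 4 of 8, those of Entpd2 and Alpl included, against 24.2% of all genes. The median log2 change of the 8 was 0.18 under proliferating conditions, against 0.07 for all tested genes, and -0.4 under differentiation conditions, against -0.08. By the study's threshold, applied to the limma p, 1 of 8 passed in each condition (Cd38, higher, and Entpd1, lower), where 3.01% and 4.05% of tested genes did. Both enzymes called with NAD+ thus fell under differentiation conditions, and the plot of single samples shows where the groups separate.

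**Figure D1:**
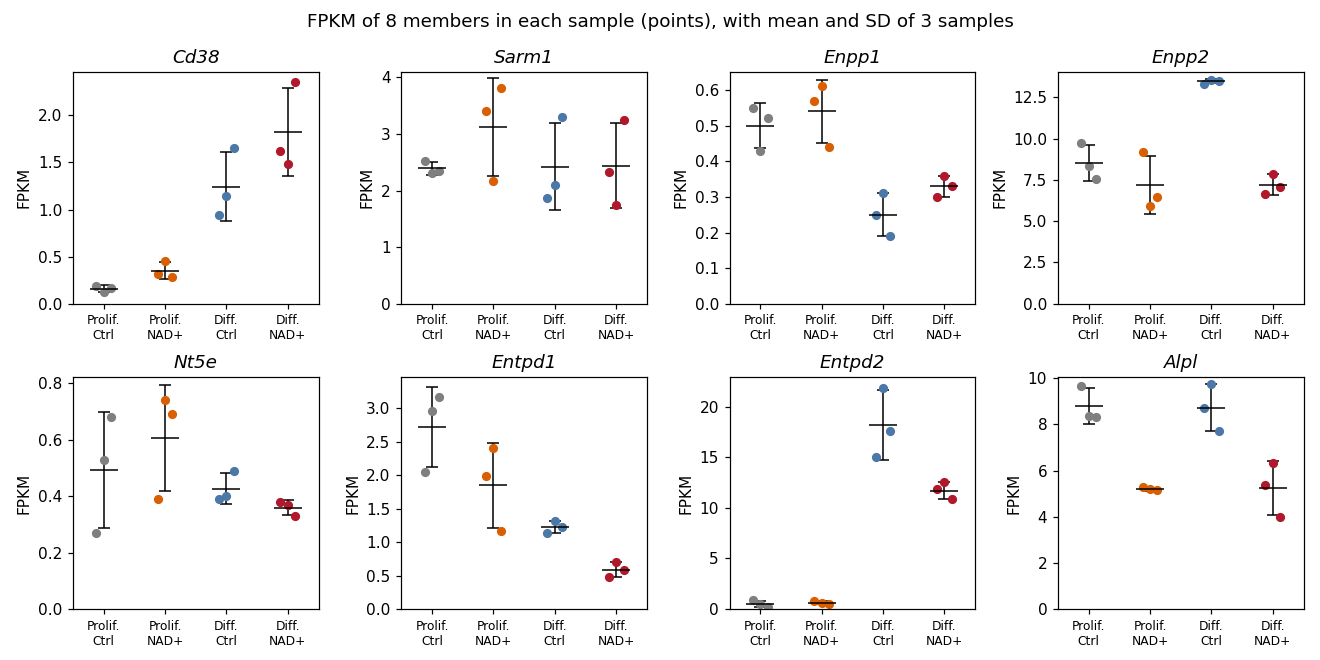
FPKM (linear axes starting at 0) of the 8 tested enzymes in each sample, shown as points for the 4 groups, with the mean and SD of 3 samples as bars. Entpd2 lies at 0.24 to 0.87 in all 6 proliferating samples and at 10.84 to 21.83 in all 6 differentiation samples, and Alpl is lower with NAD+ in both conditions.

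Among the NAD+ hydrolases, Cd38 was the transcript that varied with the culture, being lowest in proliferating Ctrl and highest in differentiating cells. Cd38 (ENSMUSG00000029084, chromosome 5 from 43868553 to 43912375 of mm10, forward strand) encodes the main ecto-NAD+ glycohydrolase of mammalian tissues. It was at 0.19, 0.12 and 0.17 FPKM in proliferating Ctrl, 0.32, 0.45 and 0.28 in proliferating NAD+, 0.94, 1.14 and 1.65 in differentiation Ctrl, and 1.62, 1.48 and 2.35 in differentiation NAD+. With NAD+, all proliferating samples lay above all proliferating Ctrl samples, whereas the differentiation groups overlapped. The proliferating means of 0.16 ± 0.0361 and 0.35 ± 0.0889 (SD, n = 3) differed 2.19-fold, with a log2 change of 0.78 (95% interval 0.12 to 1.45) and a limma adjusted p of 0.267, so Cd38 passed the 2-fold rule but was not called. It no longer passed that rule when proliferating Ctrl replicate 2 or 3 or proliferating NAD+ replicate 1 or 2 was left out. Under differentiation conditions the means were 1.24 ± 0.366 and 1.82 ± 0.467 (SD, n = 3), and the log2 change was 0.52 (95% interval -0.09 to 1.13, limma adjusted p = 0.271). These levels are low, and an FPKM of 0.1 adds a sizeable part to the proliferating values on the log scale.

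Sarm1 (ENSMUSG00000050132, chromosome 11 from 78472330 to 78497754, reverse strand), which encodes the intracellular NAD+ hydrolase, was expressed at a similar level in all 4 groups. Its FPKM values were 2.53, 2.31 and 2.34 in proliferating Ctrl, 3.40, 2.16 and 3.81 in proliferating NAD+, 1.87, 2.09 and 3.29 in differentiation Ctrl, and 2.32, 1.75 and 3.24 in differentiation NAD+. Every pair of groups that neighbored each other in mean level overlapped. The log2 change with NAD+ was 0.33 (95% interval -0.18 to 0.85, limma adjusted p = 0.493) under proliferating conditions and 0.0107 (95% interval -0.67 to 0.69, limma adjusted p = 0.988) under differentiation conditions. Bst1 (ENSMUSG00000029082, chromosome 5 from 43818885 to 43843986, forward strand), the neighbor and paralog of Cd38, was at 0 in 8 of 12 samples. It shares 98 exon bases with Fbxl5 on the opposite strand, which was at 2.99 to 5.25 FPKM, and the library kit is not stated to keep strand. Within each sample, the ratio of Cd38 to Sarm1 was 0.0519 to 0.0751 in proliferating Ctrl, 0.0735 to 0.208 in proliferating NAD+, 0.502 to 0.545 in differentiation Ctrl and 0.698 to 0.846 in differentiation NAD+. The message of the surface enzyme was thus closer in level to that of the intracellular enzyme in differentiating cells. The ratio was higher with NAD+ in all 3 differentiation samples than in any Ctrl sample. Neither gene alone separated the differentiation groups, neither change was called, and the ratio was not tested.

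Enpp2 was the enzyme with the clearest NAD+ difference under differentiation conditions. It encodes autotaxin, a secreted phosphodiesterase that releases lysophosphatidic acid from lysophosphatidylcholine and also cleaves nucleotides, and it is known for high expression in oligodendrocytes and the choroid plexus. Enpp2 (ENSMUSG00000022425, chromosome 15 from 54838901 to 54952892, reverse strand) was at 9.72, 8.32 and 7.55 FPKM in proliferating Ctrl, 9.17, 5.92 and 6.45 in proliferating NAD+, 13.33, 13.57 and 13.51 in differentiation Ctrl, and 6.67, 7.88 and 7.09 in differentiation NAD+. The 3 differentiation Ctrl samples were nearly equal and stood above every other sample, while the other 3 groups overlapped. Under differentiation conditions the mean fell from 13.5 ± 0.125 to 7.21 ± 0.614 (SD, n = 3), a 1.87-fold difference with a log2 change of -0.90 (SE 0.0741, limma adjusted p = 0.00445). Leaving out any single sample of this condition kept the call. Under proliferating conditions the means were 8.53 ± 1.1 and 7.18 ± 1.74 (SD, n = 3), and the log2 change was -0.26 (95% interval -0.70 to 0.18, limma adjusted p = 0.522).

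Of the oligodendrocyte markers, 3 of 7 tested, Cnp and Opalin among them, were called lower with NAD+ under differentiation conditions and 0 were called higher, where 4.65% of all tested genes were called lower. Cnp, an enzyme of myelin-forming cells, had a log2 change of -0.70 (SE 0.0996, limma adjusted p = 0.0147), and Opalin, a myelin membrane protein, one of -1.30 (SE 0.286, limma adjusted p = 0.0485). Mobp had a log2 change of 0.39 (limma adjusted p = 0.784), and Mog, a marker of mature oligodendrocytes that was too low to be tested, was at 0.09, 0.03 and 0.06 FPKM in differentiation Ctrl and 0.04, 0.11 and 0.22 with NAD+. Both were low, and their NAD+ values overlapped those of Ctrl. Choroid plexus markers summed to 0.92 to 2.39 FPKM in differentiation Ctrl and 0.55 to 0.79 in differentiation NAD+, and of 3 tested, Aqp1, a water channel, was called lower (log2 change -1.38, limma adjusted p = 0.0255). Folr1 pointed the other way, at 0.09, 0.07 and 0.06 FPKM in Ctrl and 0.26, 0.15 and 0.51 with NAD+. Its log2 change was 1.14 (limma adjusted p = 0.139). Ttr was at 0, 1.27 and 0.15 FPKM in Ctrl and 0, 0.08 and 0 with NAD+ (limma adjusted p = 0.417). The part of either cell type in the change of Enpp2 was not tested.

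Enpp1 (ENSMUSG00000037370, chromosome 10 from 24637914 to 24712159, reverse strand), the membrane enzyme that cleaves NAD+ and ATP, was much less abundant than Enpp2. Its FPKM values were 0.55, 0.43 and 0.52 in proliferating Ctrl, 0.57, 0.61 and 0.44 in proliferating NAD+, 0.25, 0.31 and 0.19 in differentiation Ctrl, and 0.30, 0.36 and 0.33 in differentiation NAD+. Ctrl and NAD+ samples overlapped in both conditions, with limma adjusted p-values of 0.873 and 0.476. All differentiation samples lay below all proliferating samples. The ratio of Enpp2 to Enpp1 within a sample was 14.5 to 19.3 in proliferating Ctrl, 9.7 to 16.1 in proliferating NAD+, 43.8 to 71.1 in differentiation Ctrl and 21.5 to 22.2 in differentiation NAD+. Autotaxin message thus exceeded that of Enpp1 in every sample, most so in differentiation Ctrl. It was not the most abundant ENPP transcript. Enpp5, which is not among the 10 genes, averaged 9.48, 11.1, 19.7 and 18.8 FPKM in the 4 groups in the same order. The means of Enpp2 were 8.53, 7.18, 13.5 and 7.21, and Enpp6 averaged 22.0 in differentiation Ctrl.

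Among the E-NTPDases Entpd1 to Entpd3, which act at the cell surface, Entpd1 was the most abundant transcript in dividing cells and Entpd2 in differentiating cells. The related but mainly intracellular Entpd5 was more abundant than either, at 10.6 FPKM in proliferating Ctrl and 30.3 in differentiation Ctrl. Entpd2 (ENSMUSG00000015085, chromosome 2 from 25395874 to 25401321, forward strand) encodes NTPDase2, which prefers ATP over ADP, and Entpd1 (ENSMUSG00000048120, chromosome 19 from 40612366 to 40741602, forward strand) encodes NTPDase1 (CD39), which takes ATP through ADP to AMP. Because both moved with the culture condition in opposite directions, and because forskolin raises cyclic AMP and retinoic acid acts through nuclear receptors, the 250 bases before their starts are shown, together with those of Alpl, whose NAD+ samples were separate from Ctrl in both conditions. They are RefSeq sequences of GRCm38.p6, written along the strand of the gene, and capitals mark GC boxes (GGGCGG or CCGCCC) and half-sites of the cyclic AMP response element (TGACG or CGTCA).
Entpd2, chr2:25395624-25395873, forward strand: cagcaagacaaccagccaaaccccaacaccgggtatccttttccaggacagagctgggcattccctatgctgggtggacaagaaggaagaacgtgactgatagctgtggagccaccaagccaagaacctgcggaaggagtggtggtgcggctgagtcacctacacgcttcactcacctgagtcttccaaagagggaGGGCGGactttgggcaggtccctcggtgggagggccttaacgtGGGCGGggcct
Entpd1, chr19:40612116-40612365, forward strand: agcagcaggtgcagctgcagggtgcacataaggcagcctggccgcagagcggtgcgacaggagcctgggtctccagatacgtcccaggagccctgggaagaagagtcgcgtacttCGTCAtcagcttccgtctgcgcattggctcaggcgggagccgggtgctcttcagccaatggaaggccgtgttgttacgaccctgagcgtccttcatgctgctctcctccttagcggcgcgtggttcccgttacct
Alpl, chr4:137796385-137796634, reverse strand: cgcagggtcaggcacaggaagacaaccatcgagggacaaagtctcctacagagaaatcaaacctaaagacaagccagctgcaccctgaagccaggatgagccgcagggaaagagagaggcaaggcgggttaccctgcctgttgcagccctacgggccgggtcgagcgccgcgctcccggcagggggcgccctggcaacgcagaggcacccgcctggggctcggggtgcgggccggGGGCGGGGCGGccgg

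The Entpd2 window holds 9 CpG dinucleotides and GC boxes whose first bases lie 54 and 11 bases before the start, that of Alpl holds 20 CpG and a pair of overlapping GC boxes at 15 and 10 bases, and that of Entpd1 holds 18 CpG and a response element half-site at 135 bases. The median of 32851 promoter windows of the same length was 6 CpG. Both strands were searched, and a GC box is in 32.7% of all windows, the half-site in 17.8%, and the full element TGACGTCA, which contains the half-site on either strand, in 1.55%. A retinoid receptor half-site (AGGTCA or TGACCT, 14.0% of windows) and the sequence TATAAA (12.4%) were searched too, and neither these letters nor the full element are in the 3 windows shown on either strand. Such matches describe letters only. The window of each gene lies before its outermost annotated start, while 11 transcripts are annotated for Entpd1, 3 for Entpd2 and 8 for Alpl. Matches at other starts, or in the window of Cd38, are not given. The promoter table held 8 of the 10 genes, not Bst1 and Enpp2.

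Entpd2 FPKM was 0.87, 0.45 and 0.24 in proliferating Ctrl, 0.84, 0.59 and 0.48 in proliferating NAD+, 15.04, 21.83 and 17.60 in differentiation Ctrl, and 11.83, 12.56 and 10.84 in differentiation NAD+. Every differentiation sample was far above every proliferating sample, and the differentiation NAD+ samples all lay below the differentiation Ctrl samples. The differentiation means were 18.2 ± 3.43 in Ctrl and 11.7 ± 0.863 with NAD+ (SD, n = 3), a 1.55-fold difference that narrowly missed the threshold (log2 change -0.61, SE 0.138, limma adjusted p = 0.052). Under proliferating conditions the groups overlapped (log2 change 0.35, 95% interval -0.64 to 1.34, limma adjusted p = 0.708). Entpd2 shares 612 of its 2128 exon bases with Npdc1 on the same strand, and how reads of the shared bases were counted is not given in the sources used here. Npdc1 averaged 16.0, 14.8, 33.2 and 35.9 FPKM in the 4 groups in the same order, with log2 changes with NAD+ of -0.11 and 0.11 (limma adjusted p = 0.513 and 0.496). Between Ctrl cultures its log2 difference was 1.04 (limma adjusted p = 1.35e-06). The part of the shared bases in the values of Entpd2 was not tested.

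Entpd1 FPKM was 2.04, 2.95 and 3.17 in proliferating Ctrl, 1.98, 2.41 and 1.16 in proliferating NAD+, 1.14, 1.32 and 1.22 in differentiation Ctrl, and 0.48, 0.70 and 0.59 in differentiation NAD+. All differentiation NAD+ samples were below all differentiation Ctrl samples, and the proliferating groups overlapped. The differentiation mean fell from 1.23 ± 0.0902 to 0.59 ± 0.11 (SD, n = 3), a 2.08-fold difference with a log2 change of -0.95 (SE 0.173, limma adjusted p = 0.0282). The call did not hold without differentiation Ctrl replicate 1, 2 or 3 (limma adjusted p = 0.0846, 0.1 and 0.0885) or without differentiation NAD+ replicate 1 or 3 (0.0665 and 0.0833), and without NAD+ replicate 2 it held (0.0438). It was also lost with the replicate number as a block (limma adjusted p = 0.057), without the filter (0.0589) and with quantile normalization (0.053). The 2-fold rule was no longer met without differentiation Ctrl replicate 2 or NAD+ replicate 1. Under proliferating conditions the log2 change was -0.57 (95% interval -1.27 to 0.13, limma adjusted p = 0.403). Microglial markers, which go with Entpd1 in brain tissue, summed to 0.05 to 0.51 FPKM in differentiation Ctrl and 0.06 to 0.43 with NAD+, and endothelial markers to 0.21 to 0.28 and 0.25 to 0.49. Entpd1 alone was at 1.14 to 1.32 and 0.48 to 0.70 FPKM in these groups, and the part of such cells in its change was not tested.

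Entpd3 (ENSMUSG00000041608, chromosome 9 from 120539818 to 120568327, forward strand), an NTPDase known from neurons, reached at most 0.05 FPKM. The ratio of Entpd2 to Entpd1 within a sample was 0.0757 to 0.426 in proliferating Ctrl, 0.245 to 0.424 in proliferating NAD+, 13.2 to 16.5 in differentiation Ctrl and 17.9 to 24.6 in differentiation NAD+. The order of the pair was therefore the same in all 6 samples of each condition, and the ratio in the differentiation NAD+ samples lay above that in differentiation Ctrl although both transcripts were lower there. The summed FPKM of Entpd1 to Entpd3 was 3.25 ± 0.295, 2.49 ± 0.741, 19.4 ± 3.53 and 12.4 ± 0.895 (SD, n = 3) in the 4 groups in the same order, so the rise of Entpd2 more than made up for the lower Entpd1 in this sum.

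**Figure D2:**
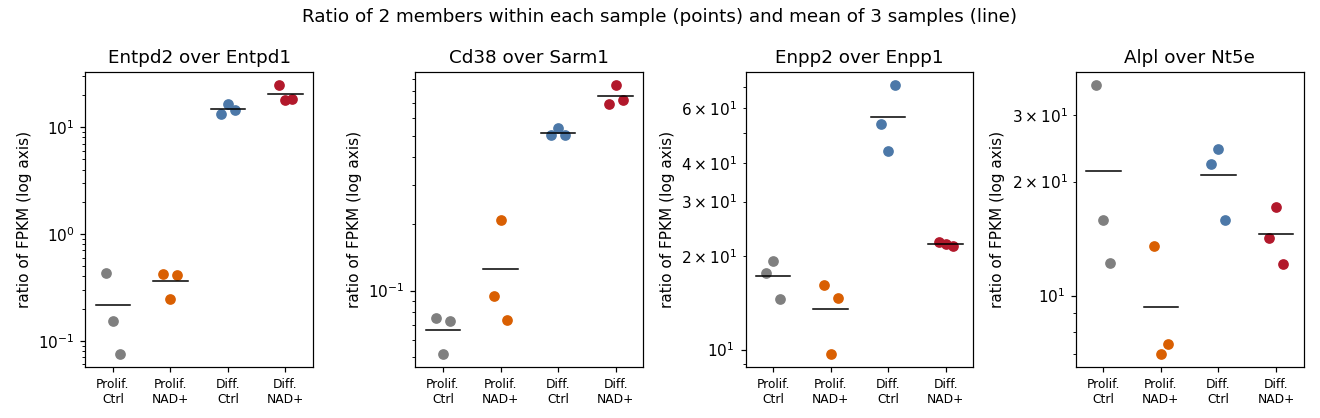
Ratio of the FPKM of paired enzymes within each sample (points, log axes) and mean of 3 samples (line) in the 4 groups. Entpd2 over Entpd1 is under 1 in every proliferating sample and at least 13.2 in every differentiation sample, and Enpp2 over Enpp1 is highest in differentiation Ctrl.

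Alpl, which encodes tissue non-specific alkaline phosphatase, was lower with NAD+ by nearly the same factor in both conditions. Alpl (ENSMUSG00000028766, chromosome 4 from 137741733 to 137796384, reverse strand) was at 9.68, 8.35 and 8.31 FPKM in proliferating Ctrl, 5.27, 5.20 and 5.14 in proliferating NAD+, 8.69, 9.76 and 7.72 in differentiation Ctrl, and 5.39, 6.32 and 3.99 in differentiation NAD+. All 6 NAD+ samples lay below all 6 Ctrl samples. Of all tested genes, 8.59% separated in this direction under proliferating and 21.1% under differentiation conditions. The share that did so across both was not computed. The means were 8.78 ± 0.78 and 5.2 ± 0.0651 (SD, n = 3) under proliferating conditions, a 1.69-fold difference with a log2 change of -0.74 (95% interval -0.98 to -0.50) and a limma adjusted p of 0.0583. Under differentiation conditions they were 8.72 ± 1.02 and 5.23 ± 1.17 (SD, n = 3), a 1.67-fold difference with a log2 change of -0.74 (95% interval -1.17 to -0.32) and a limma adjusted p of 0.059. Of the 8 progenitor markers, 0 were called with NAD+ under proliferating conditions. Their lower sum there was mostly that of Fabp7, which averaged 2110 FPKM in Ctrl and 1320 with NAD+ (limma adjusted p = 0.157), while Sox2 averaged 225 and 216 and Nes 68.8 and 82.0. Their part in the values of Alpl was not tested. Both changes of Alpl missed the threshold over all genes. With a minimum mean FPKM of 1 both passed it (limma adjusted p = 0.0412 and 0.0424). When single samples were left out, Alpl was called in 0 of 6 fits in each condition. The limma adjusted p was then 0.0554 to 0.253 under proliferating and 0.0533 to 0.162 under differentiation conditions.

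Nt5e (ENSMUSG00000032420, chromosome 9 from 88327197 to 88372092, forward strand), which encodes ecto-5'-nucleotidase (CD73), was far less abundant than Alpl in every sample. Its FPKM values were 0.27, 0.53 and 0.68 in proliferating Ctrl, 0.39, 0.74 and 0.69 in proliferating NAD+, 0.39, 0.40 and 0.49 in differentiation Ctrl, and 0.38, 0.37 and 0.33 in differentiation NAD+. The proliferating groups overlapped and the differentiation groups did so by no value, though they were only 0.01 FPKM apart. The log2 changes were 0.28 (95% interval -0.58 to 1.14, limma adjusted p = 0.736) and -0.19 (95% interval -0.66 to 0.28, limma adjusted p = 0.599). Within a sample, Alpl exceeded Nt5e by 12.2 to 35.9 times in proliferating Ctrl, 7.03 to 13.5 times in proliferating NAD+, 15.8 to 24.4 times in differentiation Ctrl and 12.1 to 17.1 times in differentiation NAD+. Between Nt5e and Alpl, the message was thus mainly that of alkaline phosphatase, and the sum of both was 9.27 ± 0.589, 5.81 ± 0.141, 9.15 ± 0.977 and 5.59 ± 1.19 FPKM (SD, n = 3) in the 4 groups.

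Counting samples that separate, the Ctrl and NAD+ values of 2 of 8 tested enzymes did not overlap under proliferating conditions (Cd38 higher, Alpl lower), where 24.1% of all tested genes did not overlap, 15.5% with NAD+ higher and 8.59% with NAD+ lower. Under differentiation conditions, 5 of 8 did not overlap, all with NAD+ lower (Enpp2, Nt5e, Entpd1, Entpd2 and Alpl), where 30.7% of all tested genes did so, 21.1% in this direction and 9.68% in the other. The summed FPKM of all 10 was 24.1 ± 1.56 in proliferating Ctrl, 19.5 ± 2.14 in proliferating NAD+, 46.0 ± 4.38 in differentiation Ctrl and 29.8 ± 1.45 in differentiation NAD+ (SD, n = 3). Enpp2, Entpd2 and Alpl carried most of that sum in differentiating cells.

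**Figure D3:**
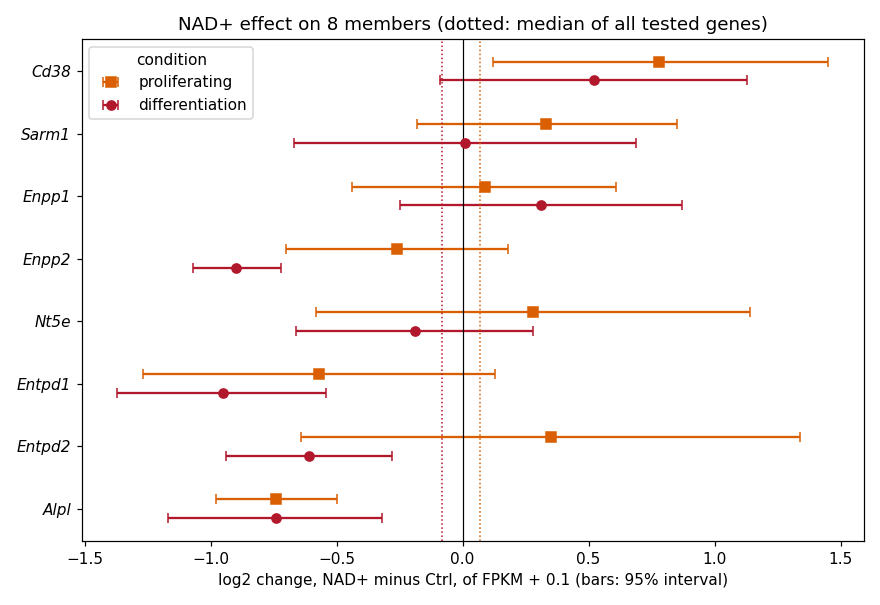
Log2 change of FPKM + 0.1, NAD+ minus Ctrl, for the 8 tested enzymes under proliferating (squares) and differentiation (circles) conditions, with 95% intervals and, dotted, the median of all tested genes. The intervals of Alpl lie below 0 in both conditions, and those of Enpp2, Entpd1 and Entpd2 only under differentiation conditions.

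Whether the NAD+ change itself differed between conditions was tested in a fit of all 12 samples, where 0 of 8 enzymes were called, against 0.467% of 19498 genes. Only Enpp2 had an unadjusted limma p under 0.05, where 15.5% of all genes did. Its change was lower by 0.63 on the log2 scale under differentiation than under proliferating conditions (95% interval of the difference -1.10 to -0.17, limma adjusted p = 0.204). For Entpd2 the difference was -0.96 (95% interval -1.96 to 0.04, limma adjusted p = 0.337), for Entpd1 -0.39 (95% interval -1.18 to 0.41, limma adjusted p = 0.626) and for Cd38 -0.26 (95% interval -1.06 to 0.53, limma adjusted p = 0.755). The difference for Alpl was near 0, with a 95% interval of -0.47 to 0.46 (limma adjusted p = 0.994). The median difference of all genes was -0.16 with the values as deposited and -0.015 with median-ratio scaling, and the differences given here are to be read against that shift. A change in one condition was thus not shown to differ from that in the other for any of these enzymes.

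Between the culture conditions without NAD+, Entpd2 and Cd38 were the enzymes farthest apart, both higher under differentiation conditions. This comparison uses the same Ctrl samples as those above, and the conditions were deposited as separate tables, so a difference in how these were made cannot be told apart from the condition. In it, 5 of 8 enzymes were called, 3 higher (Cd38, Enpp2 and Entpd2) and 2 lower (Enpp1 and Entpd1) under differentiation conditions, where 56.7% of all tested genes were called, 25.0% higher and 31.6% lower, so the share of the enzymes called was near that of all genes. The astrocyte and oligodendrocyte marker sums were higher and the progenitor sum lower in the same samples, and their part in these differences was not tested. Entpd2 was 34.9-fold higher (log2 difference 4.99, 95% interval 4.29 to 5.70, limma adjusted p = 3.36e-07) and Cd38 7.77-fold higher (log2 difference 2.34, 95% interval 1.78 to 2.91, limma adjusted p = 1.61e-05). Enpp2 was 1.58-fold higher (log2 difference 0.66, SE 0.149, limma adjusted p = 0.00297). Entpd1 was 2.22-fold lower (log2 difference -1.07, SE 0.254, limma adjusted p = 0.00407) and the mean of Enpp1 went from 0.5 ± 0.0624 to 0.25 ± 0.06 FPKM (SD, n = 3; log2 difference -0.79, SE 0.204, limma adjusted p = 0.00667). Alpl, Sarm1 and Nt5e were not called (limma adjusted p = 0.952, 0.941 and 0.77), and their 95% intervals were -0.34 to 0.32, -0.62 to 0.57 and -0.76 to 0.54. The values of Alpl thus separated NAD+ from Ctrl samples while those of the Ctrl groups overlapped, whereas Entpd2 differed mainly between the conditions.

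**Figure D4:**
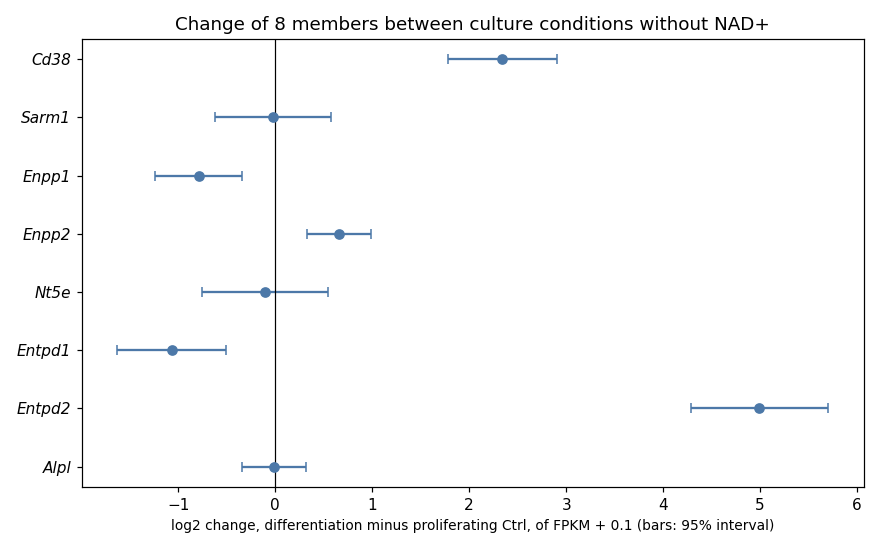
Log2 difference of FPKM + 0.1, differentiation Ctrl minus proliferating Ctrl, for the 8 tested enzymes, with 95% intervals. Entpd2 at 4.99 and Cd38 at 2.34 stand far to the right, Entpd1 and Enpp1 lie below 0, and Alpl, Sarm1 and Nt5e include 0.

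In the NAD+ groups the same levels can be read side by side without a test. Cd38 averaged 0.35 FPKM in proliferating NAD+ and 1.82 in differentiation NAD+, Entpd2 0.637 and 11.7, and Entpd1 1.85 and 0.59. Enpp2 averaged 7.18 and 7.21 and Alpl 5.2 and 5.23, nearly equal levels in each case. In order of mean level, Cd38 went from proliferating Ctrl through proliferating NAD+ and differentiation Ctrl to differentiation NAD+, and only the last neighbors in that order overlapped. For Entpd1 the order was the reverse, and only differentiation NAD+ stood clear of its neighbor.

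Other genes of the same pathways were taken from 4 lists with 58 genes, and their counts stand beside 0.145% of all tested genes called under proliferating conditions and 6.92% (2.27% higher and 4.65% lower) under differentiation conditions. Of 15 other ENPP, E-NTPDase and phosphatase genes, 8 were tested under differentiation conditions, where 1 rose and 1 fell with NAD+ (median log2 change 0.05), and 9 under proliferating conditions, where 0 were called (median 0.18). Entpd5, an endoplasmic reticulum UDPase that aids glycoprotein folding, rose from 30.3 ± 0.986 to 42.9 ± 2.0 FPKM (SD, n = 3; log2 change 0.50, SE 0.0537, limma adjusted p = 0.00753) under differentiation conditions. Its proliferating samples were also separate, at 10.17 to 11.06 FPKM in Ctrl and 14.44 to 15.23 with NAD+ (log2 change 0.48, limma adjusted p = 0.0861). Enpp6, a choline-phosphate phosphodiesterase typical of newly forming oligodendrocytes, was at 19.14, 26.68 and 20.15 FPKM in differentiation Ctrl and 7.37, 10.64 and 6.48 with NAD+, a log2 change of -1.43 (SE 0.208, limma adjusted p = 0.0153). That call was missed narrowly, at limma adjusted p from 0.0512 to 0.0531, without any one of the 3 Ctrl samples or NAD+ replicate 1, and the part of the oligodendrocyte markers described with Enpp2 was not tested. Enpp4, which cleaves diadenosine polyphosphates, was at 3.44 ± 0.545 FPKM in proliferating Ctrl and 5.68 ± 0.185 with NAD+ (SD, n = 3; log2 change 0.72, limma adjusted p = 0.115), and Entpd4b had a log2 change of 0.42 there (limma adjusted p = 0.284).

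Inside the cell, 4 of 13 tested genes of nucleotidases and purine salvage fell with NAD+ under differentiation conditions and 0 rose, where 4.65% of all tested genes fell (median log2 change -0.17 against -0.08 for all), while 0 of 13 were called under proliferating conditions (median -0.03). Ampd3, an AMP deaminase, fell from 2.64 ± 0.0971 to 1.12 ± 0.06 FPKM (SD, n = 3; log2 change -1.17, SE 0.103, limma adjusted p = 0.00494), and its proliferating values pointed the same way without passing (log2 change -0.74, limma adjusted p = 0.267). Aprt, which salvages adenine to AMP, fell from 11.7 ± 1.32 to 7.5 ± 0.37 FPKM (SD, n = 3; log2 change -0.63, limma adjusted p = 0.0164), and Adk, which phosphorylates adenosine, had a log2 change of -0.62 (limma adjusted p = 0.027). Ampd2, a further AMP deaminase, was the sole gene of this list whose NAD+ change was called different between conditions (difference -0.88, limma adjusted p = 0.0221), with a log2 change of 0.36 under proliferating conditions (limma adjusted p = 0.197) and -0.51 under differentiation conditions (limma adjusted p = 0.0227). The calls of Ampd2 and Adk were lost with the replicate block (limma adjusted p = 0.0709 and 0.0766). Without single differentiation samples, Ampd3 stayed called in all 6 fits. Aprt was lost without Ctrl replicate 2, NAD+ replicate 1 or NAD+ replicate 3 (limma adjusted p = 0.0612, 0.0527 and 0.0575), Ampd2 in all fits but that without NAD+ replicate 2 (0.0515 to 0.0862), and Adk in all 6 (0.0517 to 0.0941). Nt5c2, a cytosolic nucleotidase, had a proliferating log2 change of 0.43 (limma adjusted p = 0.252).

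Of 13 genes of nucleoside and nucleotide transport and release, 0 were called with NAD+ in either condition, and the median log2 change was -0.22 in each, over 7 tested genes under proliferating and 9 under differentiation conditions. All 9 were lower with NAD+ under differentiation conditions, where the median of all tested genes was also below 0. With median-ratio scaling the median of the list there was -0.13 and that of all tested genes -0.007. The direction of single small changes thus depends on the scaling. Slc29a1, the main equilibrative nucleoside transporter, went from 8.54 ± 0.77 to 11.7 ± 1.35 FPKM (SD, n = 3) under proliferating conditions and from 4.61 ± 0.0755 to 3.96 ± 0.191 (SD, n = 3) under differentiation conditions (limma adjusted p = 0.172 and 0.14). Gja1, the astrocytic gap junction protein connexin 43, varied between 28.22 and 84.78 FPKM within proliferating Ctrl alone (log2 change with NAD+ -1.27, limma adjusted p = 0.267). Slc29a4 had a proliferating log2 change of -0.32 (limma adjusted p = 0.224), and Slc29a2 and Gjb6 had differentiation log2 changes of -0.38 and -0.31 (limma adjusted p = 0.188 and 0.209).

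A list of 14 genes for ADP-ribose and cyclic ADP-ribose also held ecto-ADP-ribosyltransferase family genes, so not all of them act on products of CD38. Of these 14, 8 were tested in each condition and 1 rose and 1 fell under differentiation conditions (median log2 change 0.04). Under proliferating conditions 0 were called (median 0.11). Art3, a member of the ecto-ADP-ribosyltransferase family, rose from 0.373 ± 0.0751 to 1.36 ± 0.125 FPKM (SD, n = 3; log2 change 1.63, SE 0.18, limma adjusted p = 0.0078). It stayed called without any one sample. Ryr3, a ryanodine receptor calcium channel, fell from 1.07 ± 0.221 to 0.507 ± 0.0709 FPKM (SD, n = 3; log2 change -0.94, limma adjusted p = 0.0449), a call that was lost without any one sample (0.072 to 0.134), with the replicate block (0.0628) and under both other scalings (0.0573 and 0.0526). Nudt5, Tpcn1 and Ryr3 had proliferating log2 changes of 0.27, 0.38 and -0.54 (limma adjusted p = 0.289, 0.304 and 0.558), and Nudt9 was at 65.6 ± 1.93 and 60.4 ± 2.66 FPKM (SD, n = 3) in differentiating cells (limma adjusted p = 0.211).

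**Figure D5:**
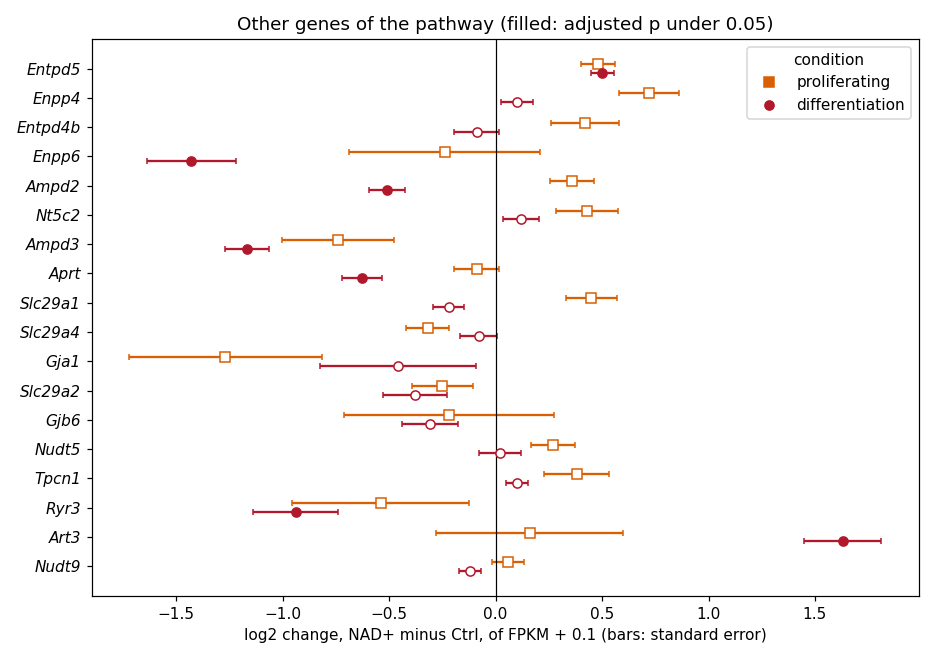
Log2 change of FPKM + 0.1, NAD+ minus Ctrl, with standard errors, for 18 genes of the 4 other lists, those with the smallest p, under proliferating (squares) and differentiation (circles) conditions, filled where the limma adjusted p is under 0.05. Filled points are seen only for differentiation, with Art3 at 1.63 and Enpp6 at -1.43 as the extremes.

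Between Ctrl cultures, the called counts of the same lists are read against the 56.7% of all tested genes called in that comparison (25.0% higher and 31.6% lower). Of the other ENPP, E-NTPDase and phosphatase genes, 5 of 8 tested were called higher and 1 lower under differentiation conditions, with Enpp6 the farthest apart (log2 difference 5.0, limma adjusted p = 9.21e-07). Of the nucleotidase and salvage genes, 1 of 13 was called higher and 8 lower, among them Ada, adenosine deaminase, with a log2 difference of -1.53 (limma adjusted p = 0.00251). Of the transport and release genes, 4 of 9 were called higher, including the vesicular nucleotide transporter Slc17a9 (log2 difference 2.76, limma adjusted p = 9.96e-06), and 3 lower, and of the ADP-ribose genes 6 of 9 were called higher, including Ryr2 and Tpcn1, and 2 lower.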

How the data were processed

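RNA-seq of 12 aNSPC samples, 3 in each of 4 groups, was used, and groups came from the sample titles. The authors aligned reads (Hisat2 v2.0.5, mm10), counted those that mapped uniquely with FeatureCounts v2.0.1 and deposited FPKM values per gene, rounded to 0.01, in 2 tables, one for each condition; the program that computed FPKM is not given in the sources used here. Fold changes, p-values and q-values of the authors' own comparison stand beside them and were not used, while no sample's column (0 in all) was excluded. Whole reads could not be recovered, since only 21.0 to 29.6% of the values of short single-exon genes fell within 0.1 of a whole multiple, where evenly spread values give 20.0%. Depth is therefore unknown and no counting error can be given. No identical samples were found.

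The 10 genes and the lists of pathway and marker genes (58 pathway genes in 4 lists, and 8 marker lists) were chosen with earlier results of these data known. FPKM was used as deposited, 0.1 was added and log2 was taken, and genes whose mean FPKM reached 0.1 were fitted with limma 3.58.1 in R 4.3.3 (moderated variance with a trend, two-sided, Benjamini-Hochberg over all tested genes), each condition by itself and all 12 samples together for comparisons between conditions. Ratios used mean FPKM with 0 raised to 0.0001. All 10 genes were named, and of each pathway list up to 3 genes with the smallest p per NAD+ comparison, plus called genes chosen after their values were seen (Adk, marker genes, and those named between Ctrl cultures). Positions came from GENCODE M21, which holds 55141 of the gene IDs. The code was tested on simulated data. Alternatives were another number added, another filter, another scaling, a replicate block, a variance without trend and leaving out each sample. Python 3.11.15, pandas 2.3.3, scipy 1.17.1 and matplotlib 3.10.9 were used. The values of 1 marker gene are not reported here.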

Additional observations from a re-analysis of the deposited data

Results flagged for a closer look

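The NAD+ change of 2 pathway genes pointed in opposite directions in the culture conditions. For Ampd2, an AMP deaminase, all proliferating NAD+ samples (8.08 to 9.07 FPKM) lay above Ctrl (5.98 to 7.01) and all differentiation NAD+ samples (3.86 to 4.4) below Ctrl (5.5 to 6.22), and the difference of the log2 changes was -0.88 (SE 0.13, limma adjusted p = 0.0221). It kept its sign under all 20 alternatives (-0.93 to -0.71) and was called in 11 of them, with limma adjusted p from 0.0138 to 0.0769. The call was lost with the replicate block (0.0676) and without proliferating Ctrl replicate 3 (0.0512), proliferating NAD+ replicate 2 or 3 (0.0509 and 0.0769), any differentiation Ctrl replicate (0.0722, 0.0526 and 0.0577) or differentiation NAD+ replicate 1 or 3 (0.054 and 0.0626). For the nucleoside transporter Slc29a1, NAD+ samples likewise lay above Ctrl under proliferating conditions (10.56 to 13.22 against 7.77 to 9.31 FPKM) and below it under differentiation conditions (3.74 to 4.08 against 4.53 to 4.68). The difference of -0.67 (SE 0.138) was not called (limma adjusted p = 0.0669, range over alternatives 0.0498 to 0.169), the lowest value being that without proliferating NAD+ replicate 1.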

How the results depend on the processing

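Of 531 recomputed values, 495 kept their direction and their side of the threshold. Under proliferating conditions the number of the 8 enzymes called was 0, and it was 1 (Alpl) with a minimum mean FPKM of 1 (limma adjusted p = 0.0412) or with quantile normalization (0.0495). Under differentiation conditions it was 2 (Enpp2 and Entpd1), and 1 without the filter or with quantile normalization, Entpd1 being lost. It was 1 to 2 when each sample was left out. With the replicate block it was again 2, with Alpl in place of Entpd1. Enpp2 was called there under every alternative run, at limma adjusted p from 0.00333 to 0.0257. With a minimum mean FPKM of 1 the number called there was 3. Entpd1 was then no longer tested, and Entpd2 (0.0381) and Alpl passed beside Enpp2. Between Ctrl cultures 5 were called, and 3 with a minimum mean FPKM of 1, which leaves fewer genes tested. By the 2-fold rule 1 passed in each condition. It was 0 in both with a minimum mean FPKM of 1 or with the fold taken from the fitted log2 values, 0 under proliferating conditions with the replicate block, and 0 to 1 in both when samples were left out.

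Signs turned only for values that were not called. The difference between conditions for Cd38 was 0.11 with 1 added, and that for Alpl was 0.14 with median-ratio scaling and 0.0714 with quantile normalization. Between Ctrl cultures the log2 difference was 0.10 and 0.00319 for Sarm1 and 0.12 and 0.23 for Alpl under these scalings. Leaving out each sample gave ranges of -0.0277 to 0.52 for Nt5e and -0.0169 to 0.74 for Entpd2 (proliferating), -0.21 to 0.25 for Sarm1 (differentiation), -0.15 to 0.17 for the difference of Alpl, and -0.26 to 0.13, -0.42 to 0.12 and -0.10 to 0.0718 for Sarm1, Nt5e and Alpl between Ctrl cultures. The cause was not tested.

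Same-numbered samples deviated together at r = 0.111, 0.021 and 0.053 under proliferating and 0.041, 0.043 and 0.026 under differentiation conditions, so the numbers are not shown to pair samples. Under differentiation conditions every sample correlated best with its own number, and under proliferating conditions not every sample did. With the replicate block, 0 of the 8 enzymes were called under proliferating conditions and 2 under differentiation conditions, Enpp2 (limma adjusted p = 0.0238) and Alpl (0.0385). Over all genes the block gave 0 and 758 calls, where the fits without it gave 27 and 1357. Calls over all genes under differentiation conditions split into 445 higher and 912 lower as deposited, 613 and 532 with median-ratio scaling, and 580 and 581 with quantile normalization. Under proliferating conditions 9 were higher and 18 lower, 29 and 46 with a minimum mean FPKM of 1, and 16 and 44 with quantile normalization.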

Other observations

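Genes whose log2(FPKM + 0.1) followed an enzyme most closely over the 12 samples were looked up among 12928 genes whose mean FPKM reached 1. All share the separation of the 4 groups and of the separately deposited tables, so the values are a description. For Cd38 these were Sgms2, Slc38a9 and Psen2 (Pearson r = 0.985, 0.982 and 0.978). Sgms2, a sphingomyelin synthase, averaged 0.6, 0.903, 2.43 and 3.79 FPKM in proliferating Ctrl, proliferating NAD+, differentiation Ctrl and differentiation NAD+. For Enpp2 they were Arhgef10l, Aldh9a1 and Mgat5b (r = 0.958, 0.956 and 0.947), and Aldh9a1, an aldehyde dehydrogenase, averaged 16.9, 14.9, 24.7 and 16.8 FPKM. For Entpd1 they were Tdrd7, Kcnq5 and Elp4 (r = 0.968, 0.963 and 0.961), and Kcnq5, a potassium channel, averaged 1.74, 1.1, 0.807 and 0.397 FPKM.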
